A study of Mus musculus with 12 samples.

Results

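Chemokines, interleukins, colony-stimulating factors and their receptors were followed at the mRNA level in mouse mammary cancer cells grown as tumourspheres. The set took every protein-coding gene whose mouse symbol in GENCODE M21 is Ccl, Cxcl, Ccr, Cxcr, Ackr, Il or Csf followed directly by a number, plus Cx3cl1, Lif, Osmr and Tslp. It held 79 of the 18278 genes with counts, out of 150 annotated genes that the same rule names. The other 71 were not analysed here. All 79 passed the filter on low counts and entered the tests.

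RNA-seq gave 12 tumoursphere libraries in 4 groups of 3, namely the lines LM1 and LM9 and, for either line, cells labelled Nfib KO. LM1 and LM9 are metastatic lines that were grown from lung metastases of NOD/SCID mice. These mice carried mammary tumours of HR1.PB, a line from a tumour of a transgenic mouse expressing mutant PIK3CA, in which a piggyBac transposon had been mobilised as a mutagen. For the KO groups Nfib, which encodes a transcription factor, was edited with CRISPR-Cas9 to shift the reading frame, and each group pools clones that grew from single cells, so that clonal differences and the edit cannot be told apart. All groups had the same culture, 6 days in non-adherent plates after seeding 10000 cells per mL, with EGF and basic FGF at 20 ng per mL each and B27 supplement. Tumourspheres are clusters that grow from single cells under such conditions.

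Chemokines are small secreted proteins that direct leukocyte migration through G protein-coupled receptors. CXC chemokines with the ELR motif mainly attract neutrophils, while most CC chemokines attract monocytes, T cells or eosinophils. Interleukins and colony-stimulating factors signal mostly through receptor chains that are shared within a family (gp130, the common gamma chain, the common beta chain) and that use JAK kinases and STAT factors, whereas the IL-1 and IL-17 families signal towards NF-kB. Tumour cells of the mammary gland are known to secrete many of these ligands, and most of the receptors are best known from leukocytes.

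Library totals ran from 29249075 to 37162594 counts, and the floor of 3 counts lay between 0.0730 and 0.121 CPM, depending on the library. CPM, the scale of all levels here, relates a count to the library total times its TMM factor. This factor was 0.827 and 0.822 in LM9 replicates 2 and 3 and 1.10 to 1.11 in the LM9 Nfib KO-labelled libraries. Small differences between these libraries therefore depend on the scaling. Values under this floor are fewer than 3 reads, and intervals given for ratios of counts cover counting error only. Genes near or under the floor in all parental (LM1 and LM9) or all Nfib KO-labelled libraries passed the filter on low counts only through the others. The filter fixed the direction of these genes beforehand, so their p-values do not test it. Nfib mRNA itself was at 196 to 241 CPM in LM1 and 228 to 239 CPM in the LM1 Nfib KO-labelled libraries, and at 120 to 210 and 227 to 247 CPM in LM9 and its labelled KO, so the labelled groups did not have less of it. The edit was designed as a frameshift, and counts over whole exons do not report on it, so this level checks neither the edit nor the label. LM9 replicate 1 stood apart from its group, and whether its label is right cannot be settled from these data. Over the 79 genes, its log2 levels correlated at 0.991 to 0.992 with the LM1 libraries and at 0.9489 to 0.9497 with the other LM9 libraries. The LM1 libraries correlated at 0.9865 to 0.9900 with one another. LM9 tests of genes described in full are therefore given with and without LM9 replicate 1. For genes given by range, leaving it out is mentioned where it changed the call. The 6 libraries labelled Nfib KO were as alike across the lines as within them: over all genes, log2 levels correlated at 0.993 to 0.994 for every pair of these 6, of the same line or not. Whether they come from separate lines, as labelled, cannot be settled from these data either. Separate cultures are not stated in the labels, so p-values measure the spread between these libraries, which may be technical.

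Marker lists were examined because all samples are bulk cultures, in which fewer cells of a type and less RNA per cell cannot be told apart. Of 12 mammary epithelial markers 11 were measured, and their summed level was 825 to 892 CPM in LM1 and 885 to 1647 CPM in LM9, but 34.3 to 35.1 and 34.0 to 36.4 CPM in the libraries labelled LM1 and LM9 Nfib KO. Of the 11, 8 fell and 3 (Krt14, Krt17 and Esr1) rose in both lines, and the sums rest largely on single genes, Krt18 in the parental groups and Esr1 in the labelled ones. Cdh1, Cldn3 and Cldn4, which define epithelial junctions, had at most 3 counts in every library of both labelled groups. For other cell types, 8 of 10 fibroblast markers summed to 174 to 311 CPM in the parental libraries and to 1316 to 1409 CPM in the labelled ones, and 6 of 10 endothelial markers to 4.66 to 15.9 and 380 to 388 CPM. Of 19 leukocyte markers 4 were measured (Cd68, Cd14, Coro1a and S100a8), with sums of 528 to 704 CPM in the parental libraries and 119 to 128 CPM in the labelled ones. Most of these sums was Cd68 (group mean 459 CPM in LM1 and 101 CPM in its labelled KO), and 3 of the 4 fell while Coro1a rose, in both lines. The fibroblast markers held 7 that rose in both lines, with Dcn lower in LM1 and, without LM9 replicate 1, also in LM9, and the endothelial ones 5 that rose in LM1 and 4 in LM9, where the other 2, Pecam1 and Plvap, fell without LM9 replicate 1. These lists moved with every difference between parental and labelled libraries below, and their part in those differences was not tested.

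Most of the 79 genes differed between the parental and the labelled libraries, in both directions and alike in both lines. In LM1, 68 genes changed (86.1%), against 81.2% of all 18176 genes tested. Of these, 31 were higher in the LM1 Nfib KO-labelled libraries and 37 lower, where 43.1% of all genes were higher and 38.1% lower. In LM9, 72 genes changed (91.1%), against 82.3% of all genes. There were 33 higher and 39 lower genes, against 44.3% and 38.0% of all genes. Without LM9 replicate 1, 75 genes changed in LM9, against 88.9% of all genes. Averaged over both lines, 72 changed, against 86.8%. The median absolute log2 fold change was 2.57 in LM1 and 2.75 in LM9, against 1.16 and 1.24 for all genes tested. The median signed log2 fold change was -0.10 in LM1 and -0.40 in LM9, against 0.08 and 0.13 for all genes. With library totals in place of TMM factors it was 0.12 in LM1, where its sign turned, and -0.05 in LM9, against 0.31 and 0.49. With TMM factors, all 4 medians of the set stayed the same with genes at 0 in a group set at their bound.

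Higher in both lines were 31 of the 79 genes and lower in both 37, against 39.6% and 33.5% of all genes, and none passed the test in opposite directions, against 0.0385%. Without LM9 replicate 1 these counts were 32, 38 and 0, against 40.7%, 34.9% and 5.73%. Since the labelled libraries of both lines were nearly alike, the lines are not shown to be independent repeats. The set was also divided into 38 ligands, 38 receptor chains, 2 antagonists or binding proteins and 1 enzyme, a division made after the values were known. Of the ligands, 11 were higher and 21 lower in LM1, and 11 and 23 in LM9 (11 and 24 without LM9 replicate 1). Of the receptor chains, 19 were higher and 14 lower in LM1, and 21 and 14 in LM9 (22 and 15 without LM9 replicate 1). For both kinds, the shares of all genes were 43.1% higher and 38.1% lower in LM1, and 44.3% and 38.0% in LM9. Levels of different genes were compared per kilobase of exon. On this scale Cxcl1 and Cxcl5 ranked highest in LM1, at 456 and 449.6 CPM per kb, and also in LM9, at 315 and 192 CPM per kb. Over LM9 replicates 2 and 3 alone Cxcl1, at 247 CPM per kb, was followed by Ccl5, at 120.0 CPM per kb, and Cxcl5, at 80.8 CPM per kb. In the LM1 Nfib KO-labelled libraries, Il33 and Il1rn ranked highest, at 97.1 and 71.9 CPM per kb, as they did in the LM9 Nfib KO-labelled ones, at 99.9 and 73.7 CPM per kb.

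**Figure D1:**
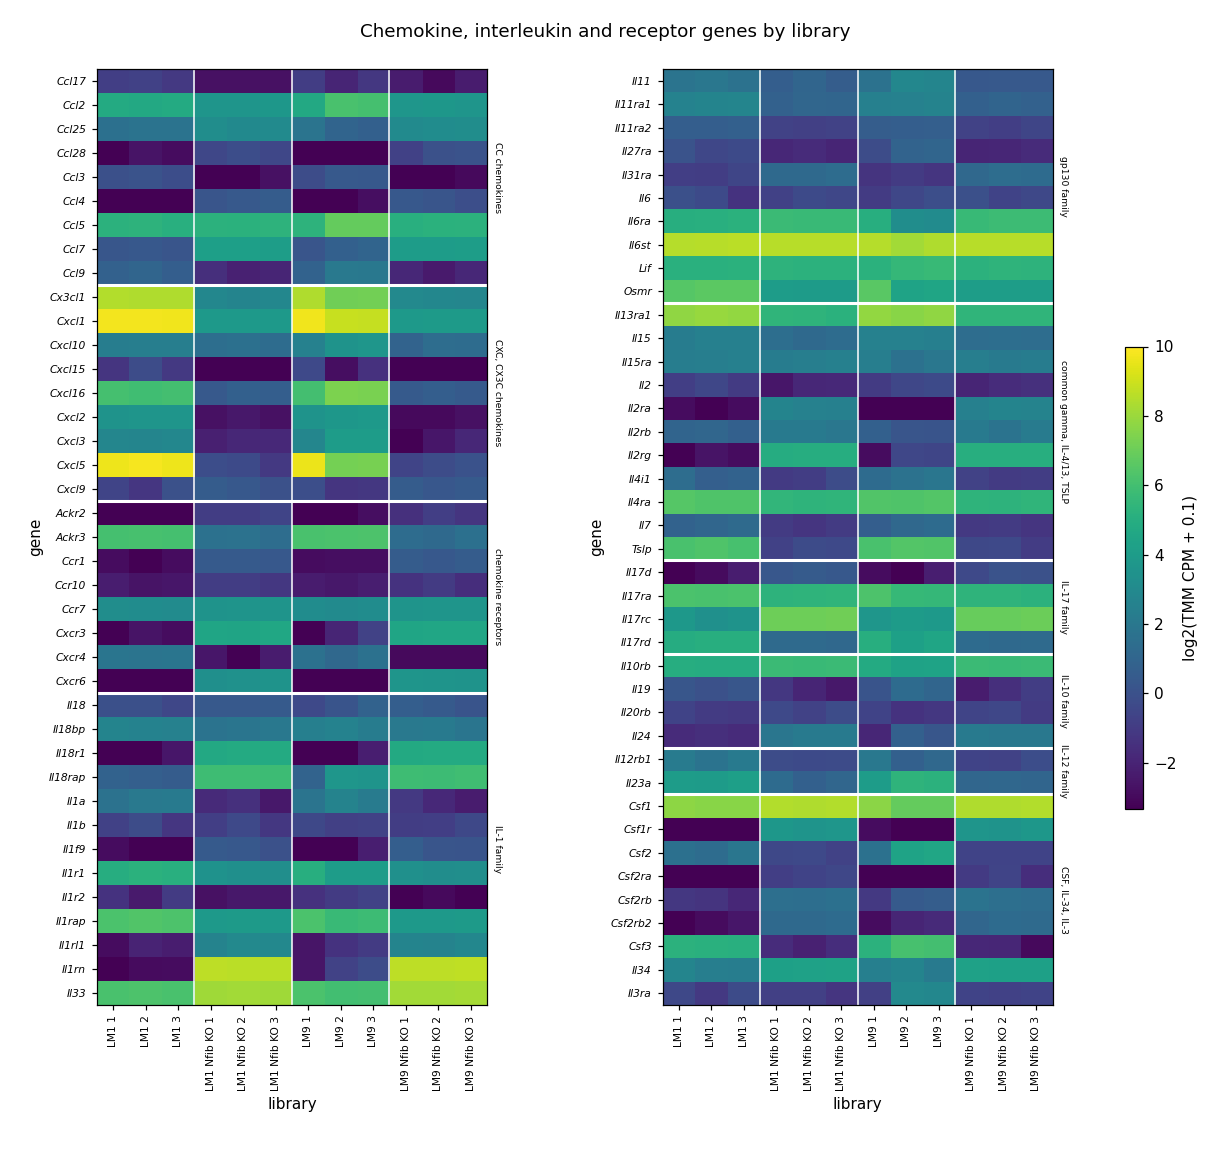
Levels of the 79 genes in each of the 12 libraries (columns), grouped by family (rows), as log2(TMM CPM + 0.1) on a colour scale. The 6 libraries labelled Nfib KO look alike, with bright Il1rn and Il33 and lower CXC chemokines other than Cxcl9, and LM9 replicate 1 resembles the LM1 columns more than the other LM9 columns.

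The neutrophil-attracting CXC chemokines and fractalkine were lower in the libraries labelled Nfib KO than in the parental tumourspheres, several of them to a level near the floor. Of 9 CXC and CX3C chemokines, 8 fell in both lines and 1, Cxcl9, rose, against 33.5% and 39.6% of all genes. Cxcl5 (ENSMUSG00000029371), a ligand of Cxcr2, was at 808, 894 and 811 CPM in the LM1 libraries, 0.780, 0.705 and 0.370 CPM under the label LM1 Nfib KO, 772, 149 and 152 CPM in the LM9 libraries, and 0.570, 0.754 and 0.910 CPM under the label LM9 Nfib KO. LM1 and LM9 replicate 1 were highest, the other LM9 libraries intermediate, and no labelled library came near a parental one. The Cxcl5 log2 fold changes were -10.44 in LM1 (SE 1.30, limma-voom adjusted p = 1.5e-05), -8.45 in LM9 (SE 1.22, limma-voom adjusted p = 5.1e-05) and -7.66 in LM9 without replicate 1 (SE 0.24, adjusted p = 6.9e-15). Cxcl1 (ENSMUSG00000029380), another ligand of Cxcr2, was at 857, 862 and 847 CPM in the LM1 libraries, 14.9, 14.9 and 14.0 CPM under the label LM1 Nfib KO, 845, 473 and 453 CPM in the LM9 libraries, and 14.3, 15.3 and 15.02 CPM under the label LM9 Nfib KO. The labelled libraries were within a narrow band far below every parental library. The Cxcl1 log2 fold changes were -5.87 in LM1 (SE 0.22, limma-voom adjusted p = 4.4e-10), -5.25 in LM9 (SE 0.22, limma-voom adjusted p = 1.0e-09) and -4.95 in LM9 without replicate 1 (SE 0.05, adjusted p = 2.6e-21). Cxcl2, which shares this receptor, was at 11.5, 12.1 and 12.3 CPM in the LM1 libraries, 0.0503, 0.0784 and 0.0528 CPM under the label LM1 Nfib KO, 11.6, 13.1 and 14.3 CPM in the LM9 libraries, and 0.0259, 0.0243 and 0.0520 CPM under the label LM9 Nfib KO. Its labelled groups held 7 and 4 counts in all, and did not overlap the parental groups. The ratio of parental to labelled levels was 198-fold (95% counting interval 95.7 to 493) in LM1 and 381-fold (95% counting interval 148 to 1401) in LM9. The fitted Cxcl2 log2 fold changes, which like those of other genes near the floor depend on the prior count, were -7.37 in LM1 (SE 0.28, limma-voom adjusted p = 5.5e-10), -8.16 in LM9 (SE 0.31, limma-voom adjusted p = 4.9e-10) and -8.24 in LM9 without replicate 1 (SE 0.39, adjusted p = 1.7e-12). Cxcl3, also a neutrophil attractant, was at 6.95, 6.65 and 7.12 CPM in the LM1 libraries, 0.126, 0.183 and 0.185 CPM under the label LM1 Nfib KO, 6.78, 16.5 and 16.4 CPM in the LM9 libraries, and 0, 0.0730 and 0.182 CPM under the label LM9 Nfib KO. The LM9 libraries other than replicate 1 were the highest, and the labelled libraries did not overlap any parental one. The Cxcl3 log2 fold changes were -5.30 in LM1 (SE 0.77, limma-voom adjusted p = 5.6e-05), -7.64 in LM9 (SE 0.94, limma-voom adjusted p = 1.3e-05) and -8.09 in LM9 without replicate 1 (SE 0.53, adjusted p = 1.7e-10).

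These genes lie side by side. The cluster of Cxcl5, Cxcl3, Cxcl15, Cxcl1 and Cxcl2 spans 146.6 kb on chromosome 5 (chr5:90759360-90905938, GRCm38, the same assembly as mm10). All 5 fell in both lines, against 33.5% of all genes. Cxcl15, a lung-enriched member, was low, at 0.0403 to 0.766 CPM over the 6 LM1 and LM9 libraries and 0 CPM over the 6 labelled Nfib KO. It passed the filter on low counts only through the parental libraries, which fixed its direction. Without a count in any labelled library, the fall of Cxcl15 was at least 19.2-fold in LM1 and at least 13.8-fold in LM9, set against 3 counts over the group. The bound for LM9 includes replicate 1. The fitted log2 fold change of Cxcl15 in LM9 was -4.23 with all libraries and -3.40 without replicate 1. The promoter windows of Cxcl3, Cxcl1 and Cxcl2 are shown because they hold a match to the NF-kB site consensus, and that of Cxcl15 because it lies among them, fell as well and holds none. The window of Cxcl10, which lies in the next CXC cluster of chromosome 5 and also fell, is shown because it holds the consensus too. These windows were chosen after the matches were known. RefSeq windows (GRCm38.p6) were matched for 57 of the 79 genes. Each line gives the 160 bases before the start, on the strand of the gene, in lower case. Capitals mark matches to the NF-kB site consensus in its degenerate 10-base form, searched on both strands, with overlapping matches merged. The windows are chr5:90785941-90786100 (plus strand), chr5:90794374-90794533 (plus), chr5:90891085-90891244 (plus), chr5:90903739-90903898 (plus) and chr5:92348890-92349049 (minus).
Cxcl3: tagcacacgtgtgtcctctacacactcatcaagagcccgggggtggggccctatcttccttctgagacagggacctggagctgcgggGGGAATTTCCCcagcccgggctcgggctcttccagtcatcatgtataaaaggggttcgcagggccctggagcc
Cxcl15: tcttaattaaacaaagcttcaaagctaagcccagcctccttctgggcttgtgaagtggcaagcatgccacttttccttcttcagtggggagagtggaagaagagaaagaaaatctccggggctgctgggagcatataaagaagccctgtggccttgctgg
Cxcl1: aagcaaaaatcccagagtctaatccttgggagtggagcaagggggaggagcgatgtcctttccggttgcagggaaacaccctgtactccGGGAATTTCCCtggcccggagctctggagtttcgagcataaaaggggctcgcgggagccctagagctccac
Cxcl2: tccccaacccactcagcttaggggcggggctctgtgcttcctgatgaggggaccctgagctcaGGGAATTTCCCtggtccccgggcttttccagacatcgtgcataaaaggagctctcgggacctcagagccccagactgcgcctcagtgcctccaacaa
Cxcl10: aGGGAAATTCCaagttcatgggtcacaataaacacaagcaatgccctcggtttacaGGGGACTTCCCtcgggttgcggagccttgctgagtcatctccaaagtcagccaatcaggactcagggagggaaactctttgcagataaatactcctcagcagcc

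The same 11 bases, GGGAATTTCCC, stood in the windows of 3 genes of the cluster, beginning 73, 71 and 97 bases before the starts of Cxcl3, Cxcl1 and Cxcl2. The window of Cxcl15, which fell in both lines too, held no match to the consensus. Cxcl5 was not among the genes with a window. Of 32851 mouse promoter windows of 300 bases, 14 held this run on either strand (0.0426%). The Cxcl10 window held GGGAAATTCC at 159 and GGGGACTTCCC at 104 bases before the start. The consensus itself was in 8.46% of all windows and in 20.6% of the 68 windows of the set. By gene, it was present in 8 of 26 genes that were lower in the LM1 Nfib KO-labelled libraries, in 4 of 21 that were higher and in 2 of 10 that did not pass. The AP-1 motif TGANTCA was in 7.81% of all windows and 16.2% of those of the set. The palindromic NFI motif, TTGGC and GCCAA with 5 bases between them, was in 12 windows of all (0.037%) and in none of the set. A match is a run of letters and was not tested as a binding site.

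**Figure D2:**
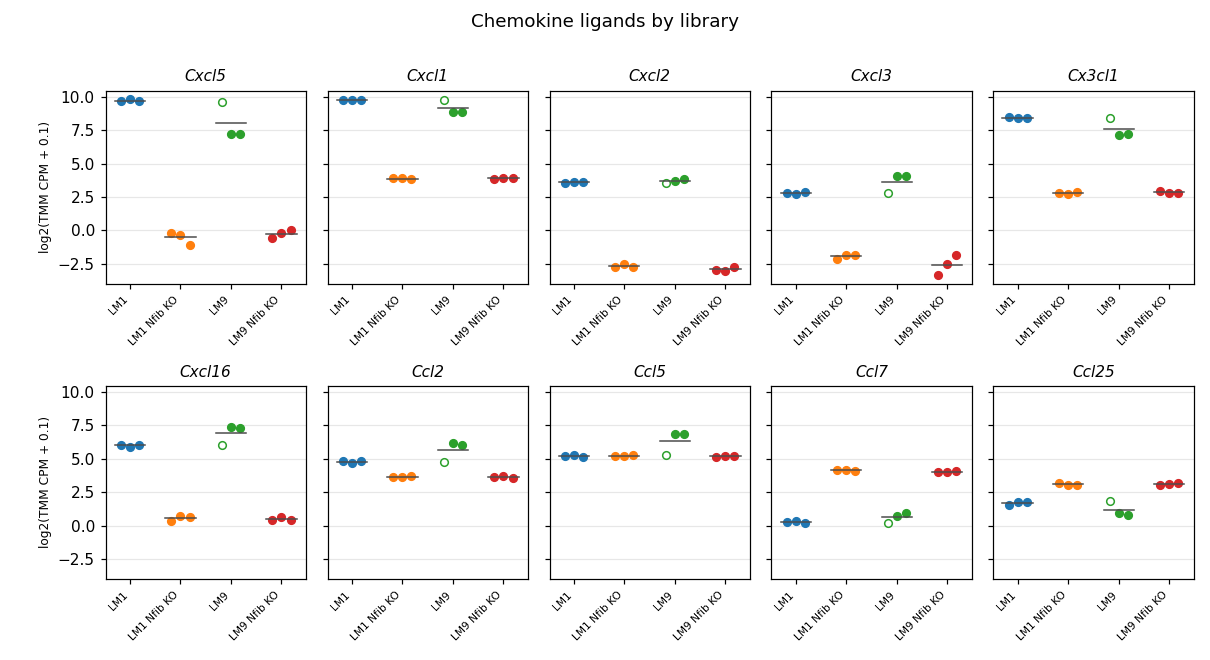
Levels of 10 chemokine ligands in each library (points) as log2(TMM CPM + 0.1), with a bar at the mean of each group; the open point is LM9 replicate 1. Cxcl5, Cxcl1, Cxcl2, Cxcl3, Cx3cl1 and Cxcl16 are lower in all 6 libraries labelled Nfib KO than in any parental library, and Ccl7 and Ccl25 are higher.

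Cx3cl1 encodes fractalkine, a membrane-bound chemokine that can be shed. It was at 355, 335 and 338 CPM in the LM1 libraries, 6.97, 6.40 and 7.08 CPM under the label LM1 Nfib KO, 344, 138 and 145 CPM in the LM9 libraries, and 7.49, 7.01 and 6.81 CPM under the label LM9 Nfib KO. Again LM9 replicate 1 was at the LM1 level, and the labelled libraries were all near the same low level. The Cx3cl1 log2 fold changes were -5.65 in LM1 (SE 0.36, limma-voom adjusted p = 4.1e-08), -4.75 in LM9 (SE 0.36, limma-voom adjusted p = 1.7e-07) and -4.31 in LM9 without replicate 1 (SE 0.07, adjusted p = 7.3e-19). Cxcl16, a transmembrane chemokine that binds Cxcr6, was at 67.3, 60.7 and 64.6 CPM in the LM1 libraries, 1.21, 1.57 and 1.48 CPM under the label LM1 Nfib KO, 64.2, 166 and 159.7 CPM in the LM9 libraries, and 1.24, 1.48 and 1.25 CPM under the label LM9 Nfib KO. LM9 replicates 2 and 3 were the highest and no labelled library overlapped a parental one. The Cxcl16 log2 fold changes were -5.50 in LM1 (SE 0.57, limma-voom adjusted p = 3.1e-06), -6.47 in LM9 (SE 0.58, limma-voom adjusted p = 7.6e-07) and -6.93 in LM9 without replicate 1 (SE 0.14, adjusted p = 1.8e-17). Exons of Cxcl16 share 18.3% of their bases with Zmynd15 on the opposite strand, and whether the counting used strand is not stated, so its level is less certain. Cxcl10, an interferon-induced ligand of Cxcr3, was at 4.93 to 12.8 CPM over the 6 LM1 and LM9 libraries and 1.76 to 2.90 CPM over the 6 labelled Nfib KO and fell, with log2 fold changes of -0.91 in LM1 and -2.02 in LM9. Its neighbour Cxcl9, which binds the same receptor, was low throughout at 0.322 to 0.904 CPM over the 6 LM1 and LM9 libraries and 0.872 to 1.38 CPM over the 6 labelled Nfib KO. Its LM1 libraries overlapped those labelled LM1 Nfib KO. Cxcl9 rose, by 1.01 in LM1 and 1.39 in LM9 on the log2 scale.

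Among the CC chemokines the directions were mixed. Of 9 genes, 4 were higher and 4 lower in the LM1 Nfib KO-labelled libraries, and 4 and 5 in the LM9 Nfib KO-labelled ones. Directions were mixed over all genes too, with 43.1% higher and 38.1% lower in LM1, and 44.3% and 38.0% in LM9. Ccl2, a monocyte attractant, was at 28.6, 25.9 and 28.4 CPM in the LM1 libraries, 12.4, 12.2 and 13.1 CPM under the label LM1 Nfib KO, 26.5, 71.6 and 66.8 CPM in the LM9 libraries, and 12.7, 13.1 and 12.03 CPM under the label LM9 Nfib KO. The labelled libraries did not overlap the parental ones, and LM9 replicates 2 and 3 were the highest. The Ccl2 log2 fold changes were -1.14 in LM1 (SE 0.33, limma-voom adjusted p = 0.0081), -1.98 in LM9 (SE 0.32, limma-voom adjusted p = 1.3e-04) and -2.45 in LM9 without replicate 1 (SE 0.06, adjusted p = 2.4e-16). Ccl7, which also attracts monocytes, lies next to it on chromosome 11 (chr11:82035571-82047525) and moved the opposite way. It was at 1.10, 1.16 and 1.05 CPM in the LM1 libraries, 18.2, 18.1 and 16.7 CPM under the label LM1 Nfib KO, 1.05, 1.57 and 1.85 CPM in the LM9 libraries, and 16.2, 16.2 and 17.1 CPM under the label LM9 Nfib KO. Every labelled library was above every parental one. The Ccl7 log2 fold changes were 3.98 in LM1 (SE 0.17, limma-voom adjusted p = 1.4e-09), 3.51 in LM9 (SE 0.16, limma-voom adjusted p = 2.7e-09) and 3.26 in LM9 without replicate 1 (SE 0.16, adjusted p = 3.6e-12). Ccl5, a T cell and monocyte attractant, was at 37.9, 38.5 and 34.4 CPM in the LM1 libraries, 37.3, 36.3 and 38.4 CPM under the label LM1 Nfib KO, 39.1, 114 and 117 CPM in the LM9 libraries, and 34.4, 37.0 and 37.3 CPM under the label LM9 Nfib KO. LM9 replicates 2 and 3 alone were high, and the LM1, labelled and LM9 replicate 1 libraries lay close together. The Ccl5 log2 fold changes were 0.02 in LM1 (SE 0.34, limma-voom adjusted p = 0.97), -1.14 in LM9 (SE 0.33, limma-voom adjusted p = 0.0073) and -1.67 in LM9 without replicate 1 (SE 0.05, adjusted p = 2.9e-15).

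The other CC chemokines were under 10 CPM in every group. Ccl25, best known from thymus and gut, was at 1.61 to 3.44 CPM over the 6 LM1 and LM9 libraries and 8.02 to 9.15 CPM over the 6 labelled Nfib KO. Ccl4 was at 0 to 0.0394 CPM over the 6 LM1 and LM9 libraries and 0.832 to 1.37 CPM over the 6 labelled Nfib KO, and Ccl28, a mucosal chemokine, at 0 to 0.0613 CPM over the 6 LM1 and LM9 libraries and 0.493 to 0.962 CPM over the 6 labelled Nfib KO. LM1 held no count of Ccl4, which was at least 35.4-fold higher in the LM1 Nfib KO-labelled libraries, and LM9 none of Ccl28, which was at least 20.96-fold higher in the LM9 Nfib KO-labelled ones. All 3 rose in both lines. Ccl3 lies next to Ccl4 and binds receptors in common with it, but was at 0.742 to 1.21 CPM over the 6 LM1 and LM9 libraries and 0 to 0.0528 CPM over the 6 labelled Nfib KO. Ccl9 was at 1.48 to 4.03 CPM over the 6 LM1 and LM9 libraries and 0.0973 to 0.252 CPM over the 6 labelled Nfib KO, and Ccl17, a ligand of Ccr4, at 0.161 to 0.490 CPM over the 6 LM1 and LM9 libraries and 0.0243 to 0.104 CPM over the 6 labelled Nfib KO. Ccl3, Ccl9 and Ccl17 fell in both lines. Neighbours with opposite directions were also seen in the IL-1 receptor cluster described below.

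**Figure D3:**
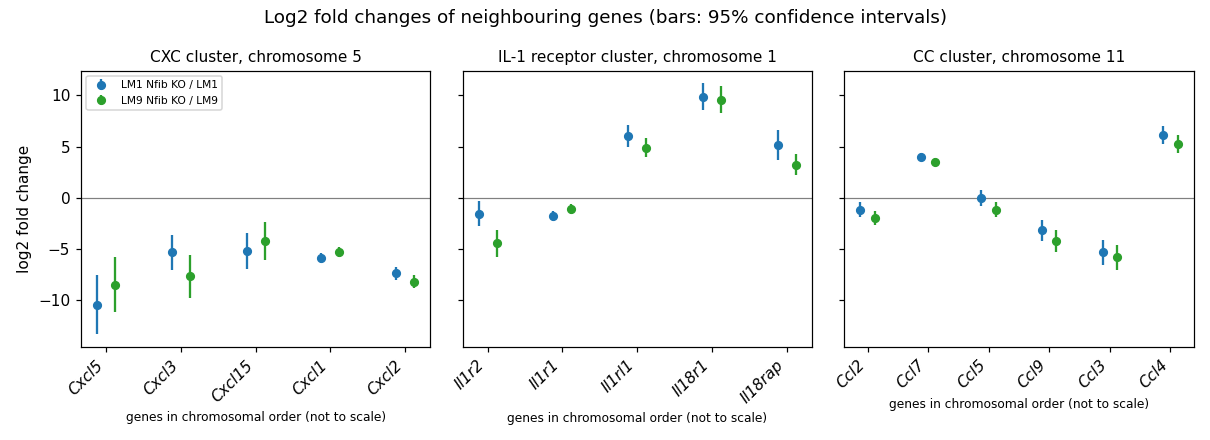
Log2 fold changes (labelled Nfib KO over parental, y axis) of genes in 3 chromosomal neighbourhoods, in gene order but not to scale, in LM1 and LM9 with all 12 libraries; bars are 95% confidence intervals. All 5 genes of the CXC cluster lie below 0, while the IL-1 receptor cluster and the CC genes hold points on both sides of 0.

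Cxcr6, Cxcr3, Ccr1, Ccr10 and Ackr2 were near the floor in the parental tumourspheres and measurable in the labelled libraries. Of 8 genes, 6 rose and 2 fell in both lines, against 39.6% and 33.5% of all genes. Cxcr6, the receptor of Cxcl16, was at 0, 0 and 0 CPM in the LM1 libraries, 9.97, 10.4 and 11.2 CPM under the label LM1 Nfib KO, 0, 0 and 0 CPM in the LM9 libraries, and 12.2, 11.7 and 11.2 CPM under the label LM9 Nfib KO. No parental library held a single count, whereas every labelled library was near 10 CPM or above. Cxcr6 thus passed the filter on low counts only through the labelled libraries, which fixed its direction, and its p-values do not test that. Cxcr6 was at least 311-fold higher in the LM1 Nfib KO-labelled libraries and at least 311-fold higher in the LM9 Nfib KO-labelled ones. Its fitted log2 fold changes were 9.28 in LM1 (SE 0.25, limma-voom adjusted p = 4.0e-11), 9.28 in LM9 (SE 0.25, limma-voom adjusted p = 4.0e-11) and 9.20 in LM9 without replicate 1 (SE 0.52, adjusted p = 2.4e-11). Cxcr3, the receptor of Cxcl9 and Cxcl10, was at 0, 0.0613 and 0.0361 CPM in the LM1 libraries, 22.7, 21.5 and 24.1 CPM under the label LM1 Nfib KO, 0, 0.161 and 0.512 CPM in the LM9 libraries, and 23.1, 23.1 and 23.9 CPM under the label LM9 Nfib KO. The parental libraries were at or near 0, with LM9 replicates 2 and 3 slightly above the rest. In LM1 the ratio of labelled to parental levels was 671-fold (95% counting interval 229 to 3257). The fitted Cxcr3 log2 fold changes were 9.08 in LM1 (SE 0.82, limma-voom adjusted p = 9.0e-07), 7.70 in LM9 (SE 0.72, limma-voom adjusted p = 1.2e-06) and 6.23 in LM9 without replicate 1 (SE 0.41, adjusted p = 1.5e-10). Ccr7, which guides cells to lymph nodes, was at 9.07, 8.95 and 8.64 CPM in the LM1 libraries, 11.2, 11.7 and 11.7 CPM under the label LM1 Nfib KO, 8.87, 8.06 and 8.78 CPM in the LM9 libraries, and 11.6, 12.4 and 12.1 CPM under the label LM9 Nfib KO. Its groups did not overlap, but the difference was small. The Ccr7 log2 fold changes were 0.37 in LM1 (SE 0.07, limma-voom adjusted p = 6.7e-04), 0.49 in LM9 (SE 0.08, limma-voom adjusted p = 9.0e-05) and 0.52 in LM9 without replicate 1 (SE 0.08, adjusted p = 1.2e-05).

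Ackr3, an atypical receptor that removes Cxcl12, went the other way. It was at 66.7, 69.3 and 66.1 CPM in the LM1 libraries, 3.02, 3.11 and 2.64 CPM under the label LM1 Nfib KO, 71.0, 73.8 and 78.0 CPM in the LM9 libraries, and 2.54, 2.29 and 2.96 CPM under the label LM9 Nfib KO. The 6 parental libraries lay close together, LM9 replicate 1 included, and far above the labelled ones. The Ackr3 log2 fold changes were -4.52 in LM1 (SE 0.10, limma-voom adjusted p = 1.8e-11), -4.84 in LM9 (SE 0.11, limma-voom adjusted p = 1.4e-11) and -4.87 in LM9 without replicate 1 (SE 0.10, adjusted p = 2.8e-17). Cxcr4, the signalling receptor of the same ligand, was at 2.18 to 3.51 CPM over the 6 LM1 and LM9 libraries and 0 to 0.106 CPM over the 6 labelled Nfib KO, and it too fell in both lines. Ccr1, a receptor of Ccl3, Ccl5, Ccl7 and Ccl9, was at 0 to 0.0403 CPM over the 6 LM1 and LM9 libraries and 1.16 to 1.35 CPM over the 6 labelled Nfib KO. Ccr10, the receptor of Ccl28, was at 0.0613 to 0.118 CPM over the 6 LM1 and LM9 libraries and 0.234 to 0.444 CPM over the 6 labelled Nfib KO, and Ackr2, a scavenger of inflammatory CC chemokines, at 0 to 0.0394 CPM over the 6 LM1 and LM9 libraries and 0.259 to 0.555 CPM over the 6 labelled Nfib KO. All 3 rose in both lines from a level near the floor.

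In the IL-1 family the antagonist and the alarmin were high in the labelled libraries, and the signalling receptor of IL-1 was lower. Of 13 genes, 6 rose and 5 fell in both lines, against 39.6% and 33.5% of all genes. Il1rn (ENSMUSG00000026981) encodes the antagonist that occupies the IL-1 receptor without signalling. It was at 0, 0.0307 and 0.0361 CPM in the LM1 libraries, 403, 399 and 392 CPM under the label LM1 Nfib KO, 0.0675, 0.524 and 0.748 CPM in the LM9 libraries, and 401, 403 and 420.2 CPM under the label LM9 Nfib KO. The LM1 libraries held 2 counts in all, LM9 replicates 2 and 3 slightly more than replicate 1, and every labelled library 392 to 420.2 CPM. In LM1 the ratio was 17617-fold (95% counting interval 4877 to 145473). The fitted Il1rn log2 fold changes were 13.46 in LM1 (SE 0.69, limma-voom adjusted p = 6.6e-09), 10.33 in LM9 (SE 0.49, limma-voom adjusted p = 3.1e-09) and 9.30 in LM9 without replicate 1 (SE 0.26, adjusted p = 1.6e-15). Its neighbour Il1f9, which encodes an IL-36 cytokine, was at 0 to 0.118 CPM over the 6 LM1 and LM9 libraries and 0.872 to 1.45 CPM over the 6 labelled Nfib KO and also rose. Il33 encodes a nuclear alarmin that is released from damaged cells. It was at 71.8, 77.5 and 72.1 CPM in the LM1 libraries, 279, 284 and 277 CPM under the label LM1 Nfib KO, 75.5, 63.1 and 65.6 CPM in the LM9 libraries, and 285, 289 and 290.3 CPM under the label LM9 Nfib KO. It was present in all libraries and higher in every labelled one, with no overlap. The Il33 log2 fold changes were 1.92 in LM1 (SE 0.07, limma-voom adjusted p = 2.6e-10), 2.09 in LM9 (SE 0.07, limma-voom adjusted p = 1.6e-10) and 2.17 in LM9 without replicate 1 (SE 0.04, adjusted p = 9.1e-18).

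The receptor cluster of chromosome 1 (chr1:40074079-40551705) holds Il1r2, Il1r1, Il1rl1, Il18r1 and Il18rap in this order over 477.6 kb, and the first genes, Il1r2 and Il1r1, fell while the others rose. Il1r1, the signalling receptor of IL-1, was at 31.4, 35.7 and 34.0 CPM in the LM1 libraries, 10.8, 10.01 and 9.54 CPM under the label LM1 Nfib KO, 32.3, 16.2 and 16.5 CPM in the LM9 libraries, and 10.4, 9.20 and 9.51 CPM under the label LM9 Nfib KO. LM9 replicates 2 and 3 lay between the LM1 level and that of the labelled libraries, without overlap. The Il1r1 log2 fold changes were -1.74 in LM1 (SE 0.21, limma-voom adjusted p = 1.4e-05), -1.10 in LM9 (SE 0.23, limma-voom adjusted p = 8.1e-04) and -0.75 in LM9 without replicate 1 (SE 0.09, adjusted p = 2.9e-07). Il1r2, its decoy counterpart, was at 0.0920 to 0.512 CPM over the 6 LM1 and LM9 libraries and 0 to 0.0793 CPM over the 6 labelled Nfib KO and fell as well. Il1rl1, the receptor of IL-33, was at 0.0354 to 0.394 CPM over the 6 LM1 and LM9 libraries and 6.11 to 7.50 CPM over the 6 labelled Nfib KO and rose, by 6.05 in LM1 and 4.91 in LM9 on the log2 scale, or by 4.19 in LM9 without replicate 1. Il18r1, the ligand-binding chain for IL-18, was at 0, 0 and 0.0723 CPM in the LM1 libraries, 25.8, 27.7 and 27.9 CPM under the label LM1 Nfib KO, 0, 0 and 0.118 CPM in the LM9 libraries, and 27.3, 28.3 and 28.0 CPM under the label LM9 Nfib KO. A parental library held at most 3 counts of it. The ratio of labelled to parental levels was 1200.2-fold (95% counting interval 332 to 9914) in LM1 and 742-fold (95% counting interval 254 to 3598) in LM9. The fitted Il18r1 log2 fold changes were 9.87 in LM1 (SE 0.60, limma-voom adjusted p = 2.6e-08), 9.59 in LM9 (SE 0.60, limma-voom adjusted p = 3.2e-08) and 9.04 in LM9 without replicate 1 (SE 0.71, adjusted p = 2.1e-09). Il18rap, the accessory chain of the same receptor, was at 1.74, 1.56 and 1.37 CPM in the LM1 libraries, 57.2, 57.8 and 56.4 CPM under the label LM1 Nfib KO, 1.82, 12.8 and 11.9 CPM in the LM9 libraries, and 58.9, 56.0 and 60.8 CPM under the label LM9 Nfib KO. The LM9 libraries 2 and 3 were above those of LM1 and LM9 replicate 1, and all were below the labelled ones. The Il18rap log2 fold changes were 5.19 in LM1 (SE 0.66, limma-voom adjusted p = 1.9e-05), 3.23 in LM9 (SE 0.46, limma-voom adjusted p = 4.7e-05) and 2.25 in LM9 without replicate 1 (SE 0.07, adjusted p = 6.9e-15).

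Il1rap, the accessory chain that IL-1 and IL-33 receptors share, was at 75.7, 82.7 and 76.8 CPM in the LM1 libraries, 14.0, 15.4 and 14.1 CPM under the label LM1 Nfib KO, 73.8, 51.7 and 56.8 CPM in the LM9 libraries, and 14.8, 14.7 and 15.2 CPM under the label LM9 Nfib KO. Parental libraries were all above the labelled ones. The Il1rap log2 fold changes were -2.43 in LM1 (SE 0.12, limma-voom adjusted p = 4.3e-09), -2.02 in LM9 (SE 0.12, limma-voom adjusted p = 2.4e-08) and -1.86 in LM9 without replicate 1 (SE 0.06, adjusted p = 1.8e-14). Of the agonists, Il1a was at 3.19 to 6.17 CPM over the 6 LM1 and LM9 libraries and 0.0793 to 0.363 CPM over the 6 labelled Nfib KO and fell in both lines, and Il1b was at 0.325 to 0.766 CPM over the 6 LM1 and LM9 libraries and 0.343 to 0.679 CPM over the 6 labelled Nfib KO and did not pass in either. A non-coding transcript on the opposite strand shares 11.2% of the exon bases of Il1a. Il18 itself was at 0.614 to 1.69 CPM over the 6 LM1 and LM9 libraries and 1.01 to 1.48 CPM over the 6 labelled Nfib KO, with log2 fold changes of 0.66 in LM1 and 0.25 in LM9 that did not pass (limma-voom adjusted p = 0.059 and 0.43). Without LM9 replicate 1, Il18 passed in LM1 (limma-voom adjusted p = 0.017) and not in LM9. Il18bp, which neutralises IL-18, was at 4.72 to 6.27 CPM over the 6 LM1 and LM9 libraries and 3.22 to 4.23 CPM over the 6 labelled Nfib KO and fell in both lines.

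The common gp130 chain changed little, while several of its partner chains changed more. Of 10 genes, 1 rose and 5 fell in LM1, and 3 rose and 5 fell in LM9 (3 and 6 without LM9 replicate 1). Among all genes, 43.1% rose and 38.1% fell in LM1, and 44.3% and 38.0% in LM9. Il6st, which encodes gp130, was at 365, 382 and 387 CPM in the LM1 libraries, 379, 376 and 376 CPM under the label LM1 Nfib KO, 372, 281 and 341 CPM in the LM9 libraries, and 380.4, 384 and 382 CPM under the label LM9 Nfib KO. LM1 overlapped its labelled counterpart, and LM9 did not, with its replicate 2 the lowest. The Il6st log2 fold changes were 0.00 in LM1 (SE 0.08, limma-voom adjusted p = 0.98), 0.22 in LM9 (SE 0.09, limma-voom adjusted p = 0.035) and 0.31 in LM9 without replicate 1 (SE 0.05, adjusted p = 4.2e-05). Il6ra, which binds IL-6, was at 32.3, 33.6 and 36.1 CPM in the LM1 libraries, 54.4, 52.9 and 51.8 CPM under the label LM1 Nfib KO, 32.8, 8.99 and 8.50 CPM in the LM9 libraries, and 51.2, 56.4 and 56.5 CPM under the label LM9 Nfib KO. LM9 replicates 2 and 3 were low, LM1 and LM9 replicate 1 intermediate and the labelled libraries high, without overlap. The Il6ra log2 fold changes were 0.64 in LM1 (SE 0.30, limma-voom adjusted p = 0.066), 1.97 in LM9 (SE 0.34, limma-voom adjusted p = 2.4e-04) and 2.65 in LM9 without replicate 1 (SE 0.10, adjusted p = 4.3e-14). In LM1 it passed without LM9 replicate 1, at 0.65 (SE 0.05, limma-voom adjusted p = 2.2e-09). Osmr, the oncostatin M receptor chain, was at 91.2, 99.2 and 98.1 CPM in the LM1 libraries, 16.3, 16.0 and 15.9 CPM under the label LM1 Nfib KO, 94.9, 21.5 and 23.1 CPM in the LM9 libraries, and 17.3, 16.9 and 17.0 CPM under the label LM9 Nfib KO. Here LM1 and LM9 replicate 1 were high and the other LM9 libraries only slightly above the labelled ones. The Osmr log2 fold changes were -2.58 in LM1 (SE 0.42, limma-voom adjusted p = 1.4e-04), -1.11 in LM9 (SE 0.45, limma-voom adjusted p = 0.037) and -0.38 in LM9 without replicate 1 (SE 0.06, adjusted p = 3.2e-05), so its value in LM9 rested largely on replicate 1. The small fall without that replicate depends on the TMM factors.

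Lif, a ligand of gp130 with Lifr, was at 35.2, 35.3 and 36.8 CPM in the LM1 libraries, 38.6, 37.4 and 38.3 CPM under the label LM1 Nfib KO, 36.2, 46.7 and 49.9 CPM in the LM9 libraries, and 37.5, 40.5 and 38.6 CPM under the label LM9 Nfib KO. All libraries other than LM9 replicates 2 and 3 lay between 35.2 and 40.5 CPM, and LM9 overlapped its labelled group. The Lif log2 fold changes were 0.09 in LM1 (SE 0.10, limma-voom adjusted p = 0.42), -0.17 in LM9 (SE 0.10, limma-voom adjusted p = 0.14) and -0.31 in LM9 without replicate 1 (SE 0.05, adjusted p = 1.6e-05). This last, small value also depends on the TMM factors. Il6 was at 0.289 to 0.851 CPM over the 6 LM1 and LM9 libraries and 0.503 to 0.856 CPM over the 6 labelled Nfib KO and did not pass in either line. Il11, another ligand of gp130, was at 3.10 to 7.13 CPM over the 6 LM1 and LM9 libraries and 1.19 to 1.93 CPM over the 6 labelled Nfib KO and fell. Its receptor gene Il11ra1 was at 5.40 to 6.47 CPM over the 6 LM1 and LM9 libraries and 1.58 to 1.99 CPM over the 6 labelled Nfib KO and its near-identical copy Il11ra2 at 1.42 to 1.63 CPM over the 6 LM1 and LM9 libraries and 0.462 to 0.598 CPM over the 6 labelled Nfib KO, and both fell. Reads of these copies may have been divided between them. Il27ra, the receptor chain for IL-27, was at 0.613 to 1.97 CPM over the 6 LM1 and LM9 libraries and 0.156 to 0.209 CPM over the 6 labelled Nfib KO and fell. Il31ra, the partner of Osmr in the IL-31 receptor, was at 0.304 to 0.578 CPM over the 6 LM1 and LM9 libraries and 2.15 to 2.60 CPM over the 6 labelled Nfib KO and rose.

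The receptor chains Il2rg, Il2ra and Il2rb rose, Il4ra and Il13ra1 fell, and Il15ra did not pass in either line with all libraries. In the group of common gamma chain, IL-4, IL-13 and TSLP genes, 3 of 11 rose and 7 fell in both lines (4 and 7 in LM9 without replicate 1). Among all genes, 39.6% rose and 33.5% fell in both lines. Il2rg, the common gamma chain, was at 0, 0.0613 and 0.0361 CPM in the LM1 libraries, 30.8, 31.1 and 30.9 CPM under the label LM1 Nfib KO, 0.0337, 0.604 and 0.590 CPM in the LM9 libraries, and 32.1, 32.1 and 32.4 CPM under the label LM9 Nfib KO. The parental libraries were near 0, with LM9 replicates 2 and 3 above the others, and the labelled ones were all near the same level. In LM1 the ratio was 913-fold (95% counting interval 312 to 4429). The fitted Il2rg log2 fold changes were 9.53 in LM1 (SE 0.80, limma-voom adjusted p = 4.8e-07), 6.97 in LM9 (SE 0.59, limma-voom adjusted p = 5.0e-07) and 5.71 in LM9 without replicate 1 (SE 0.25, adjusted p = 5.2e-13). Exons of Il2rg share 30.5% of their bases with Gm20489 on the same strand, so its count is uncertain. Il2ra, the high-affinity chain for IL-2, was at 0 to 0.0361 CPM over the 6 LM1 and LM9 libraries and 5.52 to 6.28 CPM over the 6 labelled Nfib KO, and Il2rb at 0.984 to 1.99 CPM over the 6 LM1 and LM9 libraries and 3.26 to 4.50 CPM over the 6 labelled Nfib KO, and both rose. The ligands of these chains were low. Il2 was at 0.398 to 0.708 CPM over the 6 LM1 and LM9 libraries and 0.0755 to 0.260 CPM over the 6 labelled Nfib KO, Il7 at 1.48 to 2.44 CPM over the 6 LM1 and LM9 libraries and 0.312 to 0.403 CPM over the 6 labelled Nfib KO and Il15 at 4.75 to 5.60 CPM over the 6 LM1 and LM9 libraries and 2.22 to 2.75 CPM over the 6 labelled Nfib KO, and all 3 fell. Il15ra was at 3.06 to 5.42 CPM over the 6 LM1 and LM9 libraries and 4.40 to 5.44 CPM over the 6 labelled Nfib KO and did not pass in either line with all libraries. It was higher in the libraries labelled LM9 Nfib KO without LM9 replicate 1 (log2 fold change 0.48, limma-voom adjusted p = 0.0052).

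Il13ra1, a chain of the receptors for IL-4 and IL-13, was at 224, 248 and 230.4 CPM in the LM1 libraries, 41.5, 40.5 and 36.4 CPM under the label LM1 Nfib KO, 229, 196 and 218 CPM in the LM9 libraries, and 41.9, 41.5 and 42.5 CPM under the label LM9 Nfib KO. The parental libraries lay far above the labelled ones. The Il13ra1 log2 fold changes were -2.57 in LM1 (SE 0.08, limma-voom adjusted p = 8.2e-11), -2.35 in LM9 (SE 0.08, limma-voom adjusted p = 1.5e-10) and -2.30 in LM9 without replicate 1 (SE 0.06, adjusted p = 4.5e-16). Il4ra, its partner chain, was at 88.2, 81.0 and 80.5 CPM in the LM1 libraries, 44.2, 40.6 and 42.1 CPM under the label LM1 Nfib KO, 84.3, 81.7 and 85.9 CPM in the LM9 libraries, and 41.2, 38.9 and 41.5 CPM under the label LM9 Nfib KO. Its parental and labelled groups did not overlap and LM9 replicate 1 did not stand apart. The Il4ra log2 fold changes were -0.98 in LM1 (SE 0.06, limma-voom adjusted p = 3.4e-08), -1.05 in LM9 (SE 0.06, limma-voom adjusted p = 1.9e-08) and -1.05 in LM9 without replicate 1 (SE 0.05, adjusted p = 4.3e-12). Tslp, an epithelial cytokine that acts on dendritic cells, was at 71.0, 79.1 and 70.7 CPM in the LM1 libraries, 0.503, 0.732 and 0.660 CPM under the label LM1 Nfib KO, 71.8, 86.0 and 82.2 CPM in the LM9 libraries, and 0.648, 0.681 and 0.416 CPM under the label LM9 Nfib KO. No labelled library reached 1 CPM. The Tslp log2 fold changes were -6.85 in LM1 (SE 0.22, limma-voom adjusted p = 1.3e-10), -7.10 in LM9 (SE 0.22, limma-voom adjusted p = 1.2e-10) and -7.17 in LM9 without replicate 1 (SE 0.22, adjusted p = 5.1e-15). Il4i1, a secreted amino acid oxidase rather than a cytokine, was at 1.53 to 3.66 CPM over the 6 LM1 and LM9 libraries and 0.378 to 0.766 CPM over the 6 labelled Nfib KO and fell. Its exons share 83.9% of their bases with Tbc1d17 on the opposite strand, so its count may hold reads of that gene.

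In the IL-17 family, 2 of 4 genes rose and 2 fell in both lines, against 39.6% and 33.5% of all genes. Il17ra, the common chain, was at 75.9, 73.2 and 74.0 CPM in the LM1 libraries, 39.7, 40.9 and 41.3 CPM under the label LM1 Nfib KO, 77.4, 49.2 and 47.3 CPM in the LM9 libraries, and 41.2, 40.2 and 38.0 CPM under the label LM9 Nfib KO. Replicates 2 and 3 of LM9 were nearer the labelled level, without overlap on this scale. Their small distance from it, and the fall without replicate 1, depend on the TMM factors. The Il17ra log2 fold changes were -0.87 in LM1 (SE 0.14, limma-voom adjusted p = 1.6e-04), -0.51 in LM9 (SE 0.15, limma-voom adjusted p = 0.0073) and -0.27 in LM9 without replicate 1 (SE 0.05, adjusted p = 4.4e-05). Il17rc, its partner for IL-17A and IL-17F, was at 13.6, 10.1 and 11.4 CPM in the LM1 libraries, 132, 132 and 138 CPM under the label LM1 Nfib KO, 12.5, 15.8 and 14.5 CPM in the LM9 libraries, and 119, 121 and 131 CPM under the label LM9 Nfib KO. All labelled libraries were above every parental one. The Il17rc log2 fold changes were 3.53 in LM1 (SE 0.11, limma-voom adjusted p = 9.3e-11), 3.12 in LM9 (SE 0.10, limma-voom adjusted p = 2.1e-10) and 3.03 in LM9 without replicate 1 (SE 0.09, adjusted p = 4.0e-15). Il17rd, which also restrains FGF signalling, was at 29.9, 32.4 and 32.9 CPM in the LM1 libraries, 2.34, 2.33 and 2.14 CPM under the label LM1 Nfib KO, 33.1, 18.9 and 22.7 CPM in the LM9 libraries, and 2.44, 2.29 and 2.34 CPM under the label LM9 Nfib KO. It was low in each labelled library. The Il17rd log2 fold changes were -3.80 in LM1 (SE 0.23, limma-voom adjusted p = 2.6e-08), -3.37 in LM9 (SE 0.23, limma-voom adjusted p = 7.4e-08) and -3.13 in LM9 without replicate 1 (SE 0.12, adjusted p = 1.2e-13). The ligand Il17d was at 0 to 0.118 CPM over the 6 LM1 and LM9 libraries and 0.674 to 1.33 CPM over the 6 labelled Nfib KO and rose.

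Of 4 IL-10 family genes, 2 rose and 1 fell in both lines, against 39.6% and 33.5% of all genes. Il10rb, a chain shared by the receptors of IL-10, IL-22 and type III interferons, was at 31.3, 30.3 and 30.3 CPM in the LM1 libraries, 54.2, 52.6 and 53.5 CPM under the label LM1 Nfib KO, 28.7, 20.6 and 21.1 CPM in the LM9 libraries, and 54.0, 51.5 and 54.4 CPM under the label LM9 Nfib KO. The labelled libraries were above all parental ones. The Il10rb log2 fold changes were 0.80 in LM1 (SE 0.10, limma-voom adjusted p = 1.1e-05), 1.19 in LM9 (SE 0.10, limma-voom adjusted p = 5.2e-07) and 1.35 in LM9 without replicate 1 (SE 0.05, adjusted p = 1.7e-13). Gm21970 covers 14.9% of its exon bases on the same strand. Il24 was at 0.169 to 1.61 CPM over the 6 LM1 and LM9 libraries and 3.60 to 4.34 CPM over the 6 labelled Nfib KO and rose, by 4.07 in LM1 and 2.60 in LM9 on the log2 scale and by 1.59 in LM9 without replicate 1. In contrast Il19, in the same span of 58.0 kb on chromosome 1, was at 0.889 to 2.42 CPM over the 6 LM1 and LM9 libraries and 0.0793 to 0.442 CPM over the 6 labelled Nfib KO and fell. Il20rb, a receptor chain for IL-19 and IL-24, was at 0.282 to 0.540 CPM over the 6 LM1 and LM9 libraries and 0.390 to 0.766 CPM over the 6 labelled Nfib KO and did not pass in either line, though it was higher averaged over both (log2 fold change 0.48, SE 0.21, limma-voom adjusted p = 0.047). Both IL-12 family genes fell in both lines, against 33.5% of all genes. Il23a, which encodes the specific subunit of IL-23, was at 16.5, 15.8 and 18.1 CPM in the LM1 libraries, 2.44, 1.59 and 1.98 CPM under the label LM1 Nfib KO, 16.4, 40.5 and 37.7 CPM in the LM9 libraries, and 2.00, 2.07 and 1.95 CPM under the label LM9 Nfib KO. Replicates 2 and 3 of LM9 were highest and the labelled libraries lowest, without overlap. The Il23a log2 fold changes were -3.07 in LM1 (SE 0.43, limma-voom adjusted p = 4.2e-05), -3.84 in LM9 (SE 0.42, limma-voom adjusted p = 4.7e-06) and -4.27 in LM9 without replicate 1 (SE 0.13, adjusted p = 3.4e-15). Il12rb1, the receptor chain that IL-12 and IL-23 share, was at 1.61 to 4.61 CPM over the 6 LM1 and LM9 libraries and 0.511 to 0.780 CPM over the 6 labelled Nfib KO.

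Among the colony-stimulating factors, macrophage factors and their receptor were higher in the labelled libraries, and granulocyte factors were lower. Of 9 genes in this group, 6 rose in both lines, 1 fell in LM1 and 2 fell in LM9 (3 without LM9 replicate 1). Among all genes, 39.6% rose in both lines, 38.1% fell in LM1 and 38.0% fell in LM9. Csf1, the macrophage colony-stimulating factor, was at 209, 199 and 197 CPM in the LM1 libraries, 354, 342 and 355 CPM under the label LM1 Nfib KO, 205, 113 and 117 CPM in the LM9 libraries, and 345, 346 and 348 CPM under the label LM9 Nfib KO. Parental levels were substantial, and lowest in LM9 replicates 2 and 3, but none overlapped the labelled ones. The Csf1 log2 fold changes were 0.80 in LM1 (SE 0.17, limma-voom adjusted p = 0.001), 1.31 in LM9 (SE 0.17, limma-voom adjusted p = 2.2e-05) and 1.59 in LM9 without replicate 1 (SE 0.04, adjusted p = 1.2e-16). Il34, the second ligand of the same receptor, was at 6.52, 5.12 and 4.95 CPM in the LM1 libraries, 19.1, 19.8 and 20.7 CPM under the label LM1 Nfib KO, 5.23, 6.25 and 4.29 CPM in the LM9 libraries, and 19.4, 19.2 and 19.0 CPM under the label LM9 Nfib KO. The labelled libraries were all above the parental ones. The Il34 log2 fold changes were 1.85 in LM1 (SE 0.12, limma-voom adjusted p = 5.6e-08), 1.89 in LM9 (SE 0.13, limma-voom adjusted p = 6.7e-08) and 1.90 in LM9 without replicate 1 (SE 0.13, adjusted p = 4.6e-10). Csf1r, the receptor of both, was at 0, 0 and 0 CPM in the LM1 libraries, 12.9, 11.7 and 12.6 CPM under the label LM1 Nfib KO, 0.0337, 0 and 0 CPM in the LM9 libraries, and 12.4, 11.4 and 13.2 CPM under the label LM9 Nfib KO. The parental libraries held 1 count in all, in LM9 replicate 1. Csf1r was at least 366-fold higher in the LM1 Nfib KO-labelled libraries, and in LM9 the ratio was 981-fold (95% counting interval 176 to 38768). The fitted Csf1r log2 fold changes were 9.51 in LM1 (SE 0.33, limma-voom adjusted p = 2.7e-10), 8.82 in LM9 (SE 0.33, limma-voom adjusted p = 4.8e-10) and 9.27 in LM9 without replicate 1 (SE 0.57, adjusted p = 6.9e-11). Hmgxb3 overlaps 15.1% of its exon bases on the opposite strand.

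Csf3, the granulocyte colony-stimulating factor, was at 37.9, 34.5 and 33.9 CPM in the LM1 libraries, 0.227, 0.131 and 0.238 CPM under the label LM1 Nfib KO, 38.0, 68.4 and 64.5 CPM in the LM9 libraries, and 0.181, 0.170 and 0.0260 CPM under the label LM9 Nfib KO. Replicates 2 and 3 of LM9 were the highest, and the labelled ones held 0.0260 to 0.238 CPM. The Csf3 log2 fold changes were -7.43 in LM1 (SE 0.62, limma-voom adjusted p = 4.7e-07), -8.94 in LM9 (SE 0.71, limma-voom adjusted p = 2.8e-07) and -9.21 in LM9 without replicate 1 (SE 0.44, adjusted p = 2.0e-12). Csf2, the granulocyte-macrophage factor, was at 2.87, 2.54 and 3.65 CPM in the LM1 libraries, 0.629, 0.679 and 0.528 CPM under the label LM1 Nfib KO, 3.002, 21.4 and 23.1 CPM in the LM9 libraries, and 0.544, 0.535 and 0.546 CPM under the label LM9 Nfib KO. Replicates 2 and 3 of LM9 stood well above LM1 and LM9 replicate 1, and the labelled libraries were lower still, without overlap. The Csf2 log2 fold changes were -2.26 in LM1 (SE 1.15, limma-voom adjusted p = 0.088), -4.30 in LM9 (SE 1.07, limma-voom adjusted p = 0.0029) and -5.32 in LM9 without replicate 1 (SE 0.20, adjusted p = 6.3e-14). In LM1 it passed without LM9 replicate 1, at -2.25 (SE 0.21, limma-voom adjusted p = 1.9e-08). An antisense gene overlaps exons of Csf2. The receptor chains of Csf2 went the other way. Csf2ra was at 0 CPM over the 6 LM1 and LM9 libraries and 0.234 to 0.608 CPM over the 6 labelled Nfib KO, at least 15.8-fold higher in the LM1 Nfib KO-labelled libraries and at least 10.6-fold higher in the LM9 Nfib KO-labelled ones. It passed the filter on low counts only through the labelled libraries, which fixed its direction. The common beta chain Csf2rb was at 0.181 to 1.42 CPM over the 6 LM1 and LM9 libraries and 2.65 to 3.24 CPM over the 6 labelled Nfib KO and its close copy Csf2rb2 at 0 to 0.197 CPM over the 6 LM1 and LM9 libraries and 2.00 to 2.41 CPM over the 6 labelled Nfib KO, and both rose, though reads may be divided between them. Their log2 fold changes in LM9 were 1.75 and 4.20 with all libraries and 1.11 and 3.52 without replicate 1. Il3ra was at 0.368 to 0.723 CPM in LM1, 0.472 CPM in LM9 replicate 1, 7.66 and 7.12 CPM in LM9 replicates 2 and 3, and 0.317 to 0.546 CPM in the labelled libraries. It did not pass in LM9 with all libraries (limma-voom adjusted p = 0.054), and it fell without LM9 replicate 1 (log2 fold change -3.78, limma-voom adjusted p = 1.7e-11).

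Set side by side, ligands and their receptors showed several patterns. Cxcl16 fell where Cxcr6 rose, Cxcl10 fell where Cxcr3 rose, and Csf2 fell in LM9 where Csf2ra, Csf2rb and Csf2rb2 rose. In contrast, Il33 rose with Il1rl1, and Csf1 and Il34 rose with Csf1r. Both IL-18 receptor chains rose, while Il18 did not pass. These pairs were chosen after the values were known, and mRNA levels in bulk cultures do not show whether a ligand and its receptor were made by the same cells.

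**Figure D4:**
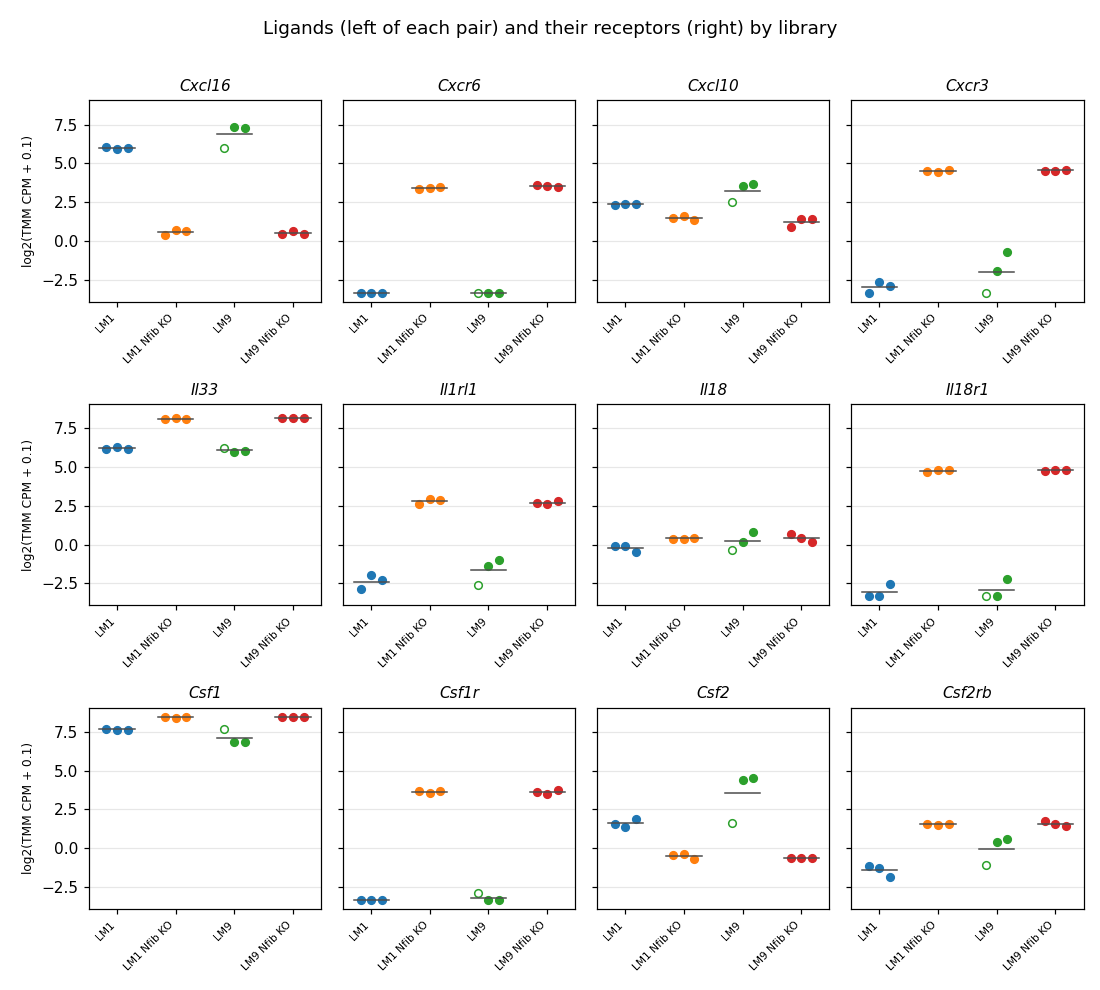
Levels of 6 ligands and a receptor gene of each (the next panel on the right) in each library as log2(TMM CPM + 0.1), with a bar at the group mean and an open point for LM9 replicate 1. All 6 receptor genes are higher in every library labelled Nfib KO than in any parental library, while Cxcl16, Cxcl10 and Csf2 are lower there and Il33 and Csf1 higher.

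Genes that act downstream of these receptors were read from lists. Of 24 measured genes of the JAK, STAT and SOCS families and related phosphatases, 4 rose and 13 fell in LM1, against 43.1% and 38.1% of all genes, and 6 rose and 11 fell in LM9 (8 and 13 without LM9 replicate 1), against 44.3% and 38.0%. The median log2 fold changes of this list were -0.55 and -0.26 (-0.16 in LM9 without replicate 1), against 0.08 and 0.13 for all genes. Among its genes with a mean of at least 10 CPM in a group, a limit kept for the lists below, the largest rise averaged over both lines was Stat6, the factor downstream of IL-4 (log2 fold change 2.61, SE 0.09, limma-voom adjusted p = 1.5e-10), with group means of 38.8, 207, 30.2 and 206 CPM in LM1, its labelled KO, LM9 and its labelled KO. Its largest fall was Jak3, the kinase that binds the common gamma chain (-6.40, SE 0.22, limma-voom adjusted p = 8.1e-11), with group means of 21.4, 0.224, 18.9 and 0.228 CPM in the same order. Jak3 thus fell where Il2rg, Il2ra and Il2rb rose.

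Of 26 genes from the IL-1 receptor to NF-kB, 12 rose and 10 fell in LM1, and 11 and 10 in LM9 (12 and 11 without LM9 replicate 1), where 43.1% and 38.1% of all genes rose and fell in LM1 and 44.3% and 38.0% in LM9. These counts lay near the shares of all genes, with median log2 fold changes of 0.23 and 0.05 (-0.02 in LM9 without replicate 1). Irak4, a kinase next to the receptor, showed the largest averaged rise among genes over the limit (log2 fold change 2.74, SE 0.10, limma-voom adjusted p = 1.1e-10, group means 4.63, 25.8, 3.32 and 26.3 CPM in LM1, its labelled KO, LM9 and its labelled KO). Below the limit Irak3, a brake on this pathway, rose more (7.02, SE 0.42, limma-voom adjusted p = 1.2e-08). Nfkbiz, a nuclear co-factor of NF-kB, showed the largest averaged fall (-4.58, SE 0.07, limma-voom adjusted p = 3.9e-13, group means 164, 6.45, 146 and 6.50 CPM). Of 17 measured cytokines and receptors whose symbols lie outside the rule, 5 rose and 11 fell in LM1 (43.1% and 38.1% of all genes), and 5 and 10 in LM9 (6 and 9 without LM9 replicate 1; 44.3% and 38.0% of all genes), with median log2 fold changes of -1.004 and -1.63 (-1.37 in LM9 without replicate 1). Clcf1, a gp130 cytokine, showed the largest averaged rise among genes over the limit (0.92, SE 0.16, limma-voom adjusted p = 1.6e-04, group means 14.2, 33.9, 23.7 and 33.1 CPM), and Ccrl2, which presents chemerin, the largest averaged fall (-7.07, SE 0.36, limma-voom adjusted p = 2.7e-09, group means 70.8, 0.396, 50.7 and 0.466 CPM). Below the limit Cmklr1, a chemerin receptor (7.60, SE 0.24, limma-voom adjusted p = 4.3e-11), Osm, a gp130 cytokine (5.24, SE 0.36, limma-voom adjusted p = 4.6e-08), and Cntf (1.60, SE 0.18, limma-voom adjusted p = 5.0e-06) rose more than Clcf1. Cx3cr1, the receptor of fractalkine, was looked up after the values were seen and fell together with its ligand (group means 8.26, 0.397, 30.4 and 0.458 CPM).

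The lines themselves were compared next. With all 12 libraries no gene of the set differed between LM1 and LM9 by limma-voom, against 0.00550% of all genes, and 33 had an unadjusted p under 0.05, against 47.7%. The edgeR quasi-likelihood test called 0, and DESeq2 called 27, against 33.1% of all genes. Without LM9 replicate 1, 49 genes differed, against 65.7% of all genes. Of these, 19 were higher in LM1 and 30 lower, against 33.4% and 32.4%. In all 49, LM9 replicate 1 was nearer to the mean of LM1 than to that of LM9 replicates 2 and 3. Higher in LM1 were Cxcl5, by 2.48 (SE 0.05, limma-voom adjusted p = 1.8e-15) on the log2 scale, Osmr, by 2.11 (SE 0.06, limma-voom adjusted p = 2.2e-14), Il6ra, by 1.96 (SE 0.10, limma-voom adjusted p = 2.7e-11), Cxcl15, by 1.82 (SE 0.59, limma-voom adjusted p = 0.012), and Cx3cl1, by 1.28 (SE 0.04, limma-voom adjusted p = 6.1e-14). The value of Cxcl15 rests on few reads, with 44 counts over the LM1 libraries and 28 over all LM9 libraries, replicate 1 included. The largest fitted falls in LM1 were those of Il1rn, at -4.19 (SE 0.55, limma-voom adjusted p = 3.3e-06), and Il2rg, at -3.87 (SE 0.50, limma-voom adjusted p = 3.0e-06), which rest on 2 and 3 counts over the LM1 libraries and depend on the prior count. Also lower in LM1 were Il3ra, with a log2 difference of -3.72 (SE 0.23, limma-voom adjusted p = 3.0e-10), Il18rap, with -2.98 (SE 0.15, limma-voom adjusted p = 2.1e-11), and Csf2, with -2.90 (SE 0.12, limma-voom adjusted p = 1.6e-12). Ccl5 and Cxcl16, named after their values were seen, were lower in LM1 too, with log2 differences of -1.64 (SE 0.05, limma-voom adjusted p = 9.8e-14) and -1.35 (SE 0.05, limma-voom adjusted p = 2.2e-13). Cxcl5 and Csf2, a neutrophil attractant and a granulocyte-macrophage factor, thus differed between the lines in opposite directions. These differences rest on the LM9 libraries labelled replicates 2 and 3 alone.

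Between the labelled groups, no gene differed with all libraries, against 0% of all genes, and 1, Il1r2, had an unadjusted p under 0.05, against 0.979%. DESeq2 and the edgeR quasi-likelihood test also called 0. The fitted log2 differences between the labelled LM1 and LM9 libraries were largest for Il1r2, at 2.14 (SE 0.66, limma-voom adjusted p = 1), Cxcl3, at 1.54 (SE 1.17, limma-voom adjusted p = 1), and Csf3, at 0.87 (SE 0.92, limma-voom adjusted p = 1), all of them low there. Among genes that were high in the labelled libraries, the difference was -0.04 for Il33 (SE 0.06), 0.02 for Csf1 (SE 0.17) and -0.15 for Cxcr6 (SE 0.07). The size of the change with the label was also compared between lines. With all libraries, 0 genes passed by limma-voom, against 0% of all genes, and 13 had an unadjusted p under 0.05, against 24.7%. The edgeR quasi-likelihood test called 0, and DESeq2 called 2, against 0.386%. Without LM9 replicate 1, 43 passed, against 57.2%. The fitted log2 change of Il1rn was larger in LM1 than in LM9 by 4.16 (SE 0.55, limma-voom adjusted p = 5.5e-06), or by 3.13 (SE 0.85, limma-voom adjusted p = 0.2) with all libraries. It rests on 2 counts over the LM1 libraries and depends on the prior count. The log2 difference of change was -2.78 for Cxcl5 and -2.19 for Osmr without LM9 replicate 1, and -1.99 and -1.47 with all libraries, where neither passed.

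**Figure D5:**
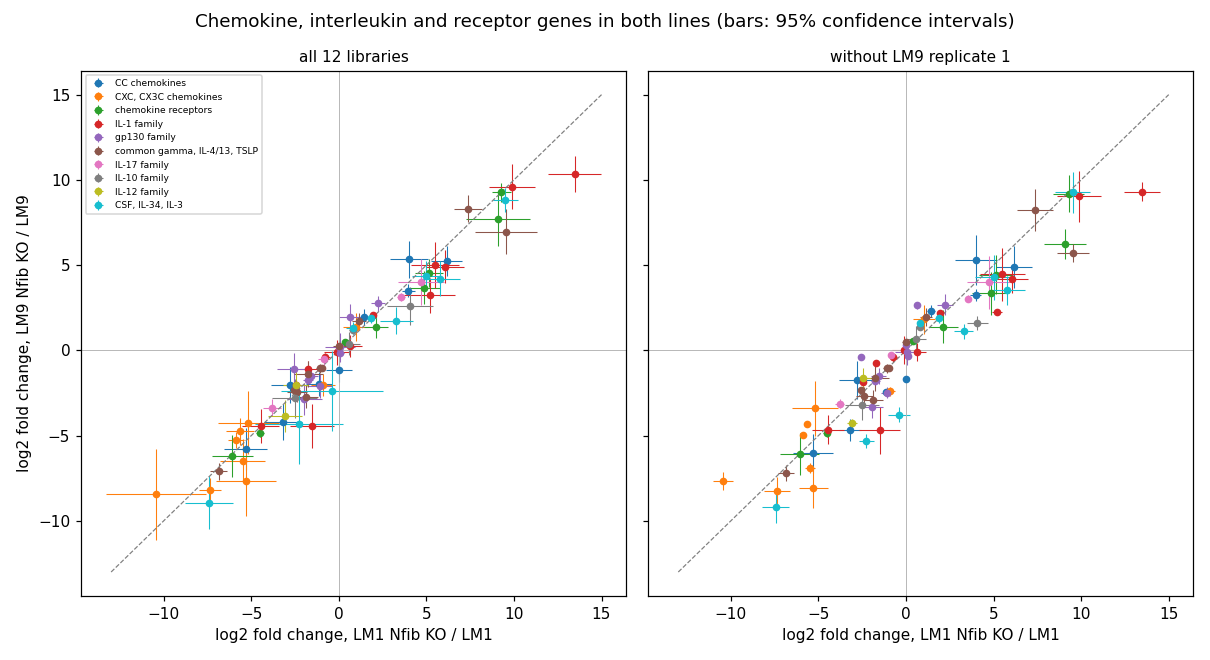
Log2 fold change of each of the 79 genes (labelled Nfib KO over parental) in LM1 (x axis) and LM9 (y axis), coloured by family, with 95% confidence intervals, using all 12 libraries (left) or leaving out LM9 replicate 1 (right); the dashed line marks equal values. Most points lie near this line in both panels. Il1rn, at 13.46 in LM1 and 10.33 in LM9, is the point farthest to the right, and the intervals of Cxcl5, farthest to the left, shrink without LM9 replicate 1.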

How the data were processed

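The 12 RNA-seq libraries of tumourspheres (4 groups of 3, grouped by their labels) were analysed. The deposited values are raw counts per gene: the authors aligned single-end reads of stranded mRNA libraries with STAR to mm10 and counted read starts over the exons of each gene with QuasR, and the versions, annotation release and use of strand are not given in the sources used here. No column was left unused. Gene identifiers were matched to GENCODE M21 (18268 of 18278).

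Counts were tested with limma-voom, the approach of the study, in R 4.3.3 (limma 3.58.1, edgeR 4.0.16 for TMM factors and the filterByExpr filter). The filter kept 18176 genes (18246 without LM9 replicate 1). One mean per group was fitted over all 12 libraries, and p-values were Benjamini-Hochberg adjusted over all genes tested, with a threshold of 0.05. "Rose", "fell" and "changed" refer to this threshold. Levels are counts-per-million with TMM factors. A fold against a group with no count is a bound against 3 counts over the group (narrower than the plan, which had set a bound for all groups at or under 3 counts per library), and otherwise, for groups with few counts, a ratio with an exact 95% interval that covers counting error only. Genes with a mean of at least 10 CPM in a group were described in full and the others by range, and from each pathway list the largest rise and fall past the threshold, averaged over both lines, were named among genes with a mean of at least 10 CPM in a group. The set, its families and the lists were chosen with earlier results of these data known. The scripts were tested on simulated data.

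Alternatives were the edgeR quasi-likelihood test, DESeq2 1.42.0, other scaling and filters, a replicate block, sample quality weights, fits of the compared groups alone and leaving out each library. Counts of every pair of libraries differed by more than sampling noise. Same-numbered libraries did not deviate together (correlations -0.059 to 0.025), so the numbers were not treated as pairs.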

Additional observations from a re-analysis of the deposited data

How the results depend on the processing

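The genes of the set that changed numbered 66 to 71 in LM1 and 70 to 75 in LM9 when each library was left out. Of all genes, 77.6% to 88.6% and 78.8% to 88.9% changed in the same fits. With the replicate number as a block, 69 changed in LM1 (80.3% of all genes), 73 in LM9 (81.6%), 72 averaged over both lines (86.3%) and 0 in the difference between lines (0%). That difference, 0 genes with all libraries, came to 2 with DESeq2 (0.386% of all genes), 44 with sample quality weights (58.1%) and 0 to 43 when each library was left out, 43 being the value without LM9 replicate 1 (57.2%). LM1 against LM9, also 0, came to 27 with DESeq2 (33.1% of all genes), 17 with library totals (28.8%), 15 with a mean of at least 1 CPM (30.4%), 47 with quality weights (63.8%) and 0 to 49 when each library was left out, 49 again without LM9 replicate 1 (65.7%). Fits of the compared groups alone were not run for the averaged and difference contrasts, which use all groups. Other scaling was not combined with leaving out LM9 replicate 1, so small changes in that fit, such as those of Il17ra, Osmr and Lif in LM9, were not tested under it. With library totals in place of TMM, the median over all genes moved from 0.08 to 0.31 in LM1 and from 0.13 to 0.49 in LM9 on the log2 scale. The median of the set moved from -0.10 to 0.12 in LM1, a change of sign, and from -0.40 to -0.05 in LM9, where 36 genes were then higher and 36 lower. Some log2 values near 0, none of which passed the test with all 12 libraries, changed sign, and the cause was not tested. Of these, Lif in LM9 and Cxcl2 and Tslp in LM1 against LM9 passed without LM9 replicate 1. For the change with the label in LM1, Il6st was 0.0213 with DESeq2, 0.0217 with median-ratio factors, 0.2192 with library totals, 0.0028 with no filter, 0.0 with a mean of at least 1 CPM and -0.0238 to 0.0174 when each library was left out, where Ccl5 was -0.0308 to 0.059. In LM9, Lif was 0.1805 with library totals. For LM1 against LM9, library totals gave Cxcl2 0.0208, Il4ra 0.1197 and Tslp 0.0174, and edgeR and DESeq2 both gave Cxcr6 0.0. There, leaving out each library gave Il18r1 -1.1284 to 0.6565, Il34 -0.0539 to 0.2015 and Il4ra -0.0555 to 0.0091.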
